A study of Mus musculus with 80 samples.

Results

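The 3 mRNAs of the Zfp36 family, Zfp36, Zfp36l1, and Zfp36l2, were followed through all 80 libraries of 2 experiments on how mouse microglia are prepared for RNA-Seq. The members were found by gene symbol among 15919 genes of the sort experiment and 16000 genes of the preparation experiment, and all 3 passed the filter on low counts in each of the 6 model fits. They were selected on earlier results of these same libraries, in which Zfp36 was high in cell suspensions as compared with tissue and lower with inhibitors, so their levels between preparations are described here without a test. The members are tested only for sorting and for TRAP against Input, which did not choose them.

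All mice were Cx3cr1(Jung)-cre/Ert2+;NuTRAP+ and received tamoxifen at 100 mg/kg from about 3 months of age, and no group lacks the transgenes or the tamoxifen. Tamoxifen lets the cre, which is driven in Cx3cr1+ cells, switch on an eGFP-tagged ribosomal protein. Pulldown of ribosomes with an antibody to GFP (TRAP, translating ribosome affinity purification) enriches the RNA that Cx3cr1+ cells have on ribosomes. It does not remove all RNA of other cells. Input is the RNA of the same lysate before the pulldown. The sort experiment holds homogenate of a hemisected brain (Tissue), the enzymatically and mechanically dissociated suspension (Cell), and suspensions sorted with CD11b beads (autoMACS), with beads and then a cartridge sorter (autoMACS to Tyto), with the cartridge sorter alone (Tyto), or with a cytometer (FACSAria). There were 4 mice in each group other than autoMACS to Tyto with 3 and Tyto with 5. The preparation experiment holds the tissue again (Tissue2), a suspension made mechanically at 4 °C (Dounce), and the enzymatic suspension without or with inhibitors of transcription and translation in the solutions (Cell no inhibitors, Cell with inhibitors), with 4 mice each. Tissue2 is a second set of tissue data from the mice of Tissue, which are also the mice of Cell. The sample titles do not say which step was repeated. All 3 mice of autoMACS to Tyto are also in autoMACS, and Tyto and FACSAria share 3 mice. The 2 suspensions without and with inhibitors share their mice, while the Dounce mice are in no other group.

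Proteins of this family carry a pair of zinc fingers that grip AU-rich stretches in the 3′ end of an mRNA and then call in the CCR4-NOT deadenylase, which shortens the poly(A) tail and starts decay of that mRNA. Zfp36 itself, the gene of tristetraprolin, is switched on within minutes by serum, cytokines, and bacterial products, and its protein clears the mRNA of Tnf and other cytokines and holds inflammation in check in macrophages and microglia. Zfp36l1 and Zfp36l2 code for close relatives that take part in the development and quiescence of blood cells, and their mRNAs are present in many resting cells. The kinase Mapkapk2, acting below p38, phosphorylates tristetraprolin and keeps it from recruiting the deadenylase.

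The genes lie on mm10 at chr7:28376784-28379228 (Zfp36), chr12:80107760-80113013 (Zfp36l1), and chr17:84183928-84187947 (Zfp36l2), all on the minus strand. RefSeq promoter windows of build GRCm38.p6 were matched for 2 of the 3 members, Zfp36 and Zfp36l1. The 150 bases before the start site are shown for Zfp36l1, with motif matches in capitals. They are not shown for Zfp36, since a GENCODE M21 transcript of it starts 1025 bases beyond the listed gene and runs through that window.
Zfp36l1, chr12:80113014-80113163, minus strand: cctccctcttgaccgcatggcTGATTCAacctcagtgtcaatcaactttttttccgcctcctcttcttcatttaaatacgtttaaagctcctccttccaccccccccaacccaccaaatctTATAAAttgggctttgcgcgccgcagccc
In the Zfp36l1 window the capitals mark an AP-1 match (TGANTCA) at -129 to -123 and a TATA box (TATAAA) at -29 to -24. The Zfp36 window held an EGR match (GCGNGGGCG) at -105 to -97 from the RefSeq start and a CArG box, the sequence that serum response factor binds, at -58 to -49. Over 32851 promoter windows of 300 bases, searched on both strands, 5.55% held the EGR letters, 1.63% a CArG box, 7.81% the AP-1 letters, and 13.6% the TATA letters. The cyclic AMP element TGACGTCA, in 1.79% of windows, and the NF-kB motif, in 8.46%, had no match in either member. A match is a description of these letters and not a measured site.

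The motif that the family binds, TATTTAT when written as DNA, is also present in the family's own mRNAs. Every member held it 3 times, and the longer form TTATTTATT 1 time, after the stop codon, in the GENCODE M21 transcript with the longest such part among those linked to RefSeq mRNAs. Among 19178 genes, 25.7% held the short form and 6.78% the long form. A 30-base stretch around 1 site of each member and of 3 known targets is shown as DNA, with the motif in capitals, so that the members can be set beside the mRNAs they are known to bind.
Zfp36: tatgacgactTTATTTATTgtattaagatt
Zfp36l1: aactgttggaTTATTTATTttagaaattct
Zfp36l2: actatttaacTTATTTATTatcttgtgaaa
Tnf: atttaTTATTTATTTATTATTTATTTATTt
Il1b: ttaccTATTTATTTATgTATTTATtgattg
Ier3: taattaaTATTTATgTATTTATgtatatcc
In the order shown these lie at chr7:28376950-28376979, chr12:80108166-80108195, chr17:84184913-84184942, chr17:35199676-35199705, and chr2:129364801-129364830 on the minus strand, and at chr17:35822485-35822514 on the plus strand, all in 3′ untranslated sequence. The members and Tnf show the long form, which occurs 4 times, with overlaps, in the Tnf stretch, while Il1b shows the short form 3 times and Ier3 2 times.

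Library totals ran from 7129464 to 20168116 counts in the sort experiment and from 2471448 to 14650287 in the preparation experiment, where Dounce-TRAP was shallowest with a median of 3403594. Zfp36 in tissue Input was the least deeply counted value, with 32 to 288 counts in a library, while every library of the enzymatic suspension without inhibitors or of sorted cells held at least 7539 counts of it. The summed level of 10 microglial markers (Tmem119, P2ry12, and others) was 312.5 to 484.8 CPM (counts scaled to the same total in every library, here without TMM factors) in Tissue-Input, 6202 to 7458 in Tissue-TRAP, and 31920 to 34870 in Cell-TRAP. In sorted TRAP it was 36250 to 41750, with none of the 10 at 0 in any group. The autoMACS-Input library of mouse 72 stood apart with a marker sum of 21500, where the group's median was 32600.

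Zfp36 was low in every library of brain tissue and high in every library of the enzymatic suspension. In Tissue-Input it was at 3.269, 13.43, 2.782, and 3.873 CPM in the 4 mice, and in Tissue-TRAP at 12.87, 15.98, 13.56, and 10.51. Cell-Input libraries of the same mice held 578.5, 737.7, 591.1, and 526.5 CPM, and Cell-TRAP libraries held 3363, 3095, 2658, and 2509. No suspension library came near a tissue library, and within tissue the Input of mouse 947 alone stood above the other 3. The difference was 7.79 ± 0.17 on the log2 scale (SE, 4 mice against 4) in TRAP, or 221.7-fold, and 6.80 ± 0.37 in Input. Without the Input library of mouse 947 the Input difference was 7.62.

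Zfp36l1 and Zfp36l2 were also higher in the suspension, by less than Zfp36. Zfp36l1 was at 42.54, 47.48, 32.88, and 29.04 CPM in Tissue-TRAP and at 1070, 995.4, 650.9, and 539.9 in Cell-TRAP, a difference of 4.44 ± 0.23. For Zfp36l2 the Tissue-TRAP libraries held 60.36, 55.02, 56.95, and 51.81 CPM and the Cell-TRAP libraries 1270, 1565, 1369, and 1217, a difference of 4.61 ± 0.11. Neither gene's groups overlapped, but how many of all genes do the same was not counted. In this comparison 25.1% of 14953 genes were called higher and 29.3% lower. In Input the differences were 4.28 ± 0.18 for Zfp36l1 and 4.24 ± 0.17 for Zfp36l2.

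The microglial markers were also higher in the suspension, 10 of 10 in each fraction. Their median difference was 2.68 in TRAP and 4.30 in Input on the same log2 scale, and in these bulk samples more cells of a type and more RNA per cell cannot be told apart. Set against the mean of the 10 markers, all on log2(CPM + 1), Zfp36 went from -4.69 ± 0.32 (SD, n = 4) in Tissue-TRAP to 0.26 ± 0.29 in Cell-TRAP. In Cell-TRAP it was thus near the marker mean on this scale, which does not correct for mRNA length. Zfp36l1 went from -3.24 ± 0.44 to -1.62 ± 0.56 and Zfp36l2 from -2.67 ± 0.16 to -0.84 ± 0.20. In Input the same scale keeps the higher Zfp36 in the suspension (2.48) but turns the direction of Zfp36l1 (-0.15) and Zfp36l2 (-0.18). Markers of other cells moved as well. In Cell-Input against Tissue-Input, endothelial markers were called higher in 10 of 10 (median 4.67), border macrophage markers in 6 of 6 (3.79), blood markers in 6 of 6 tested (4.35), oligodendrocyte markers in 10 of 10 (2.13), and astrocyte markers in 7 of 10 (2.21), while neuron markers were called lower in 10 of 10 (-2.98). Of 15750 genes tested in Input, 7248 were called in this comparison, 61.9% of those higher. In TRAP the border macrophage markers were called higher in 6 of 6 (2.16) and the endothelial markers in 10 of 10 (2.51), and the neuron markers lower in 10 of 10 (-5.12). Over all genes in TRAP, 25.1% were called higher and 29.3% lower. The summed level of 10 neuron markers was 8798 to 10170 CPM in Tissue-TRAP and 144.7 to 380.1 in Cell-TRAP, and that of 10 endothelial markers 186.8 to 282.4 and 965.3 to 1035, with none of either list at 0 in all libraries of a group. In Tissue-Input the neuron sum was 9914 to 10520 CPM, close to that of Tissue-TRAP. Astrocyte marker sums were 4330 to 4686 CPM in Tissue-Input and 4431 to 6422 in Tissue-TRAP. Oligodendrocyte sums went the other way, with 4229 to 5103 and 881.6 to 1251. The part of all these other cells in the differences of the family was not tested.

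**Figure D1:**
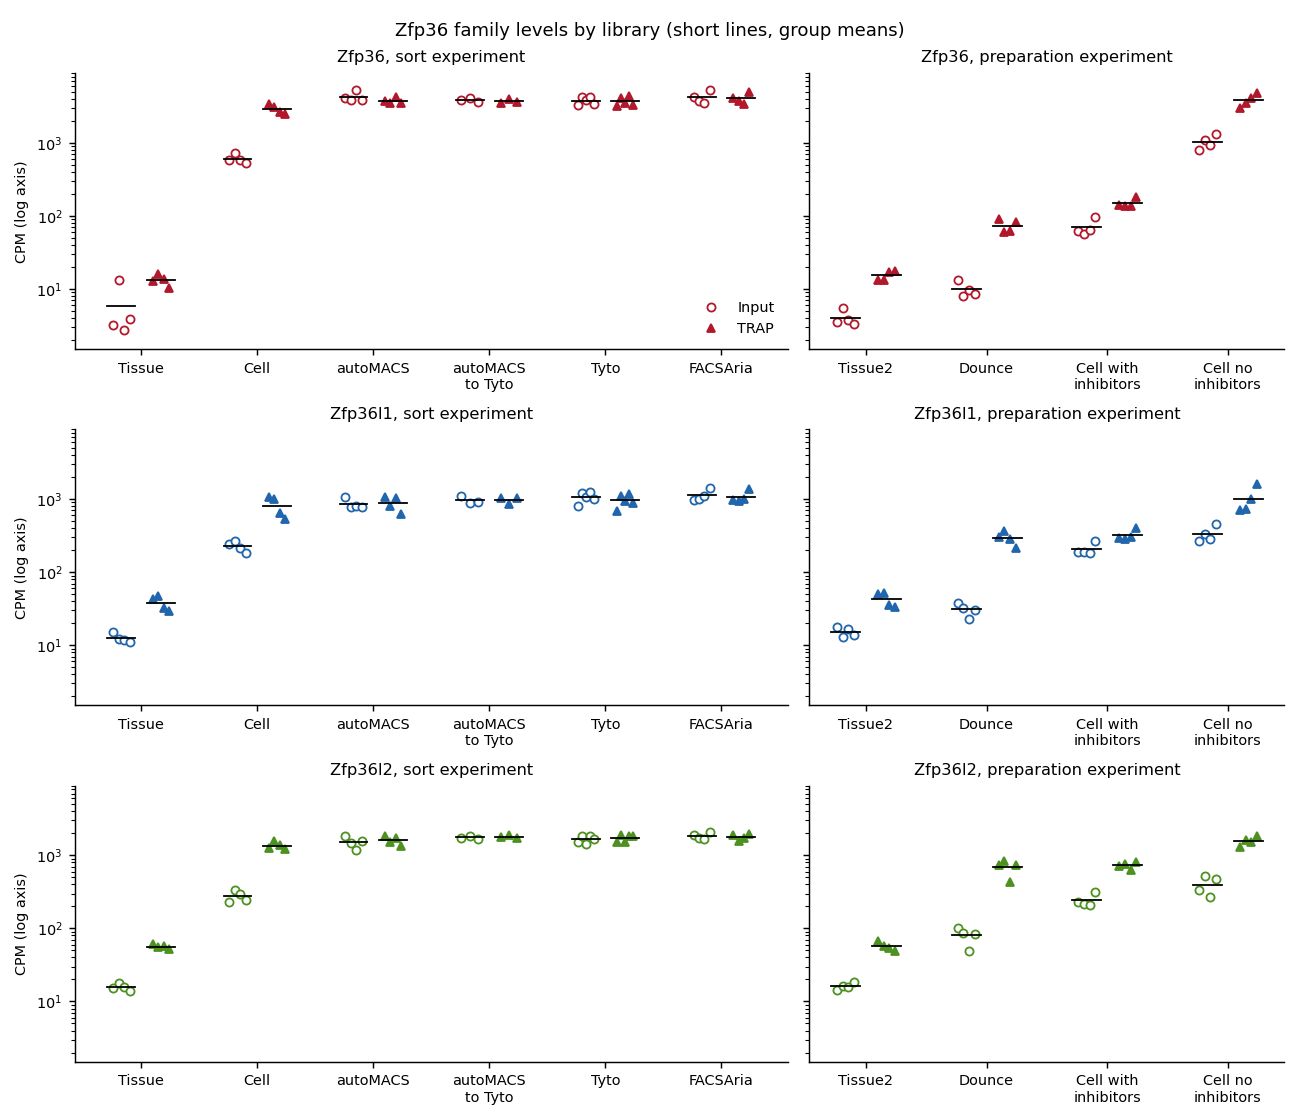
Levels of Zfp36, Zfp36l1, and Zfp36l2 in CPM on a log axis, 1 symbol a library (open circles Input, triangles TRAP), short lines the group means, for the sort experiment (left) and the preparation experiment (right), which were normalized separately. Zfp36 spans from 2.782 CPM in a Tissue-Input library to 5312 in a FACSAria-Input library, and the tissue, Dounce, and inhibitor groups lie below the suspensions without inhibitors.

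The preparation experiment, with other mice for the suspension and the second set of tissue data, gave the same order. Zfp36 was at 13.3, 13.51, 17.02, and 17.74 CPM in Tissue2-TRAP and at 3033, 3491, 4073, and 4838 in Cell no inhibitors-TRAP, a difference of 8.01 ± 0.21. The differences of Zfp36l1 and Zfp36l2 were 4.62 ± 0.26 and 4.83 ± 0.19, and the microglial markers had a median of 2.40. The experiments share the tissue mice and were normalized separately, so the values stand side by side and are not 2 independent measurements.

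With the inhibitors in the dissociation solutions, the Zfp36 level was far lower than without them, and the levels of the relatives differed less. Zfp36 was at 140.5, 136.7, 137.6, and 181.5 CPM in Cell with inhibitors-TRAP, all below the lowest library without inhibitors at 3033. The difference between the suspensions from the same 4 mice was -4.69 ± 0.18 on the log2 scale in TRAP, a 25.74-fold difference, and -3.90 ± 0.21 in Input. Zfp36l1 was at 295.4, 282.8, 301.5, and 406.7 CPM with inhibitors and at 707.2, 723.6, 1017, and 1613 without, a difference of -1.65 ± 0.23. Zfp36l2 showed the smallest gap, from 720.7, 762, 637.9, and 816.4 CPM with inhibitors to 1306, 1630, 1521, and 1845 without, a difference of -1.09 ± 0.16. In TRAP neither relative's groups overlapped, whereas in Input the Zfp36l2 groups did, with a difference of -0.73 ± 0.20. How many of all genes do not overlap was not counted, and 0.632% of 14723 genes were called lower in TRAP. The microglial markers had a median difference of 0.05 in TRAP and 0.13 in Input, with 0 of 10 called in either. Mouse 1362 had the highest Zfp36 and Zfp36l1 level both with and without inhibitors.

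The inhibitor suspension nevertheless held more of all 3 mRNAs than tissue did. Against Tissue2-TRAP the differences were 3.33 ± 0.17 for Zfp36, 2.97 ± 0.25 for Zfp36l1, and 3.74 ± 0.18 for Zfp36l2, beside a median of 2.38 for the microglial markers. Relative to the marker mean the gap to Tissue2-TRAP shrank to 0.56 for Zfp36, 0.26 for Zfp36l1, and 1.03 for Zfp36l2.

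Cold mechanical dissociation gave the lowest Zfp36 of the suspensions. Dounce-TRAP held 90.31, 59.57, 62.53, and 82.1 CPM of Zfp36, below every library of Cell with inhibitors-TRAP and above every library of Tissue2-TRAP. How many of all genes separate in the same way was not counted. The difference from Cell no inhibitors-TRAP was -5.70 ± 0.19, a 52.02-fold difference, with a marker median of 0.07. The difference from Tissue2-TRAP was 2.31 ± 0.17, smaller than the marker median of 2.46, and relative to the marker mean Zfp36 turned direction and was 0.32 lower in Dounce-TRAP (-0.32). Zfp36l1, at 305, 362.7, 285.8, and 217 CPM, and Zfp36l2, at 741.7, 841.8, 428, and 735.8, overlapped with their levels in Cell with inhibitors-TRAP. From Tissue2-TRAP they differed by 2.83 ± 0.25 and 3.65 ± 0.18, which left 0.26 and 1.04 relative to the markers. The Dounce groups come from mice in no other group and from shallower libraries, and the summed endothelial markers were at 57.8 to 84.34 CPM in Dounce-TRAP, with Emcn at 0. The authors also report the lowest RNA integrity in Dounce-Input and the use of a whole brain for it. They found gene coverage more skewed to the poly(A) end in tissue and Dounce than in the enzymatic suspensions. By the authors' methods, Dounce and the enzymatic suspensions also differed together in enzyme, temperature, and clean-up, which cannot be told apart. The part of all these in the differences was not tested.

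**Figure D2:**
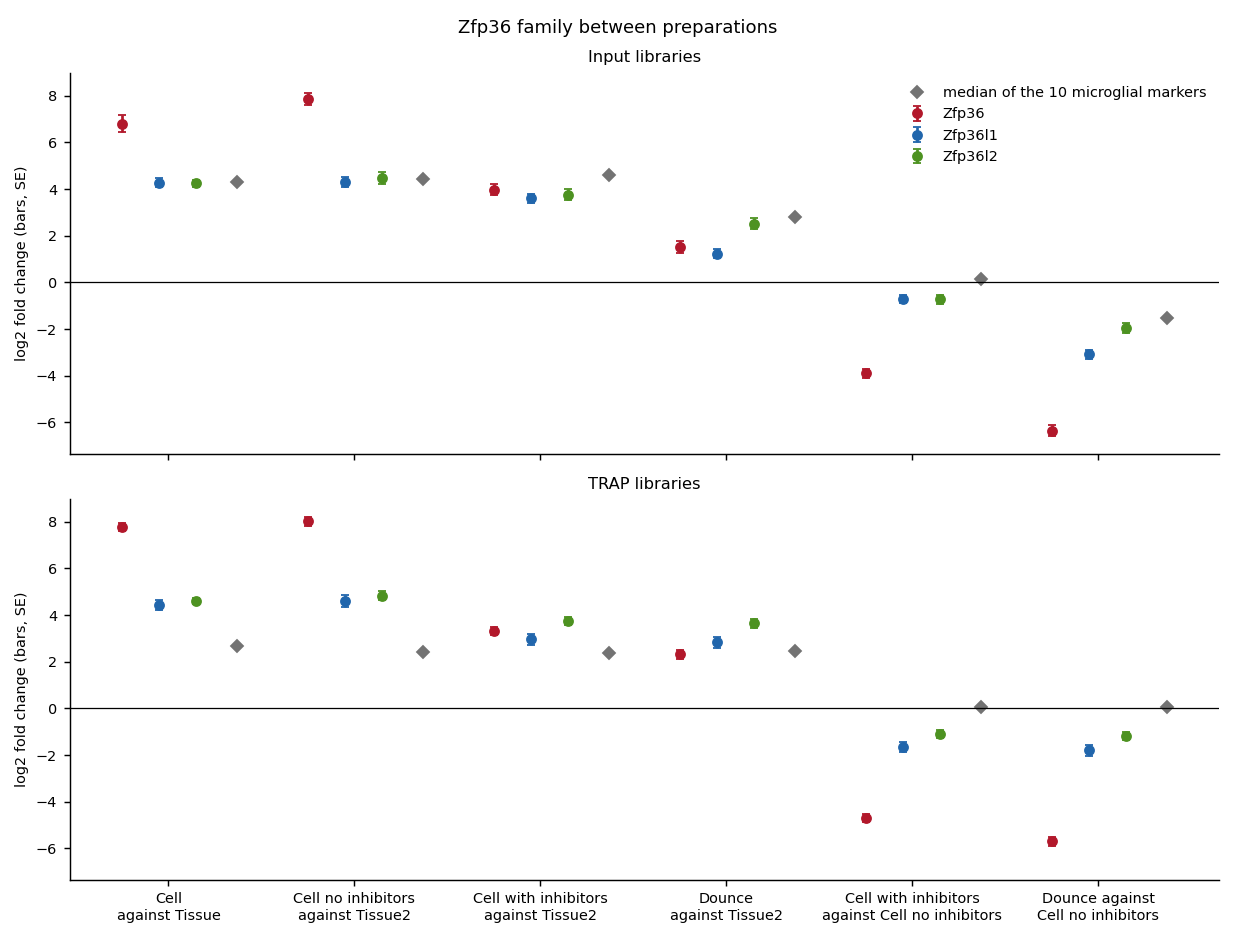
Log2 fold change of each member between preparations in Input (top) and TRAP (bottom), with SE bars from the edgeR fits of 4 mice a group, and the median of the 10 microglial markers as a grey diamond. In TRAP, Zfp36 lies 7.79 and 8.01 above tissue in the suspensions without inhibitors and 3.33 and 2.31 above it with inhibitors and with Dounce, where the markers lie between 2.38 and 2.68; relative to those markers the Dounce value of Zfp36 turns to -0.32.

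The make-up of the family differed between preparations. Dividing CPM by mRNA length (1765 bases for Zfp36, 2984 for Zfp36l1, and 3530 for Zfp36l2, the exon bases of a GENCODE M21 transcript within the listed gene) lets the members be compared with each other. Their ratio within a library does not depend on how much of the library is microglial only if 1 cell type supplies them. Whether that holds was not tested. In Tissue, relative to the microglial markers, Zfp36, Zfp36l1, and Zfp36l2 were lower in TRAP than in Input (-2.95, -2.72, and -2.45). Shares in tissue may thus include other cells. Per length of mRNA, Zfp36 was 20.7% (range 18.9% to 22.3%) of the family in Tissue-TRAP and 71.6% (69.3% to 73%) in Cell-TRAP. The share was 73.7% in Cell no inhibitors-TRAP, 21.1% in Cell with inhibitors-TRAP, and 12.7% in Dounce-TRAP, and no library with inhibitors or with Dounce reached the share of a suspension without inhibitors. In TRAP, Zfp36l2 was the leading member wherever Zfp36 was not, with 44.3% in Tissue-TRAP, 52.1% in Cell with inhibitors-TRAP, and 57.5% in Dounce-TRAP. Zfp36l1 held 35% in Tissue-TRAP, 26.8% with inhibitors, 29.8% with Dounce, and 11.6% in Cell-TRAP. In all sorted groups Zfp36 held 71.4% to 76.9%, close to the unsorted suspension. These shares take coverage along the mRNA as even, while the authors report it as more skewed in tissue and Dounce. The transcript of Zfp36 reaches 1025 bases beyond the listed gene, and with its whole length of 2790 bases the share was 14.2% in Tissue-TRAP, 61.4% in Cell-TRAP, 63.9% in Cell no inhibitors-TRAP, 14.5% in Cell with inhibitors-TRAP, and 8.46% in Dounce-TRAP.

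**Figure D3:**
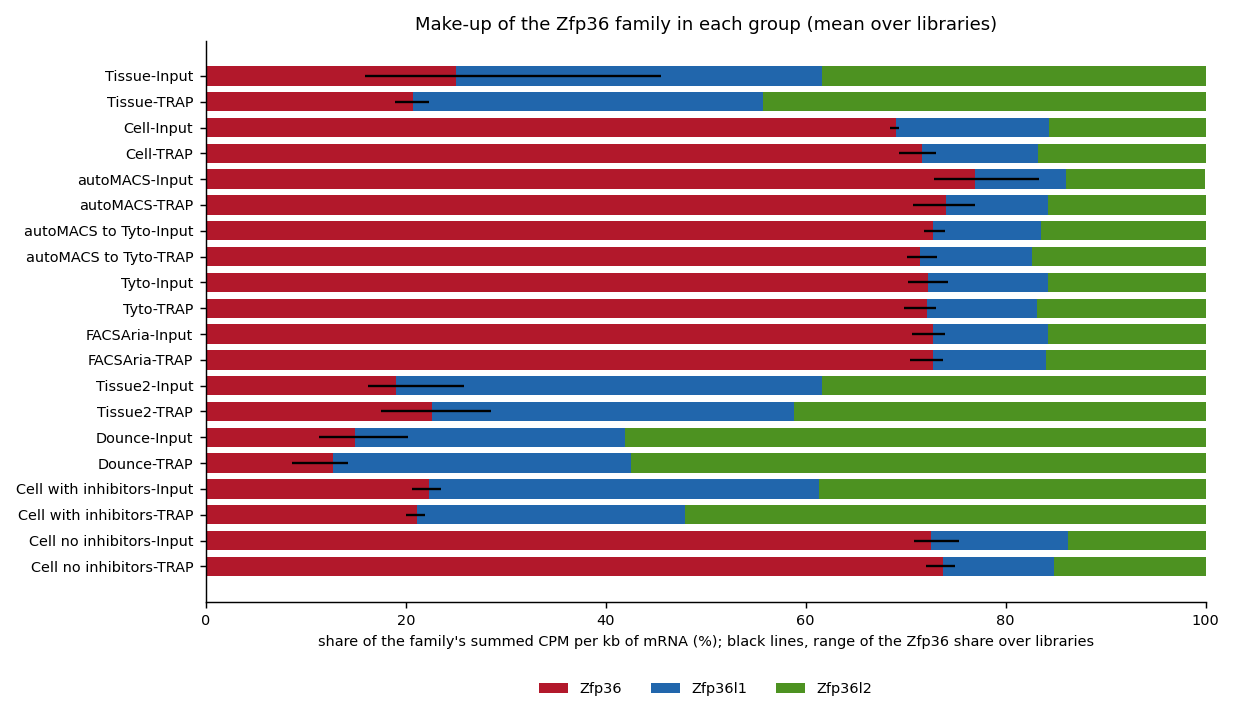
Share of each member in the family's summed CPM per kb of mRNA, averaged over the libraries of each of the 20 groups, with black lines for the lowest and highest Zfp36 share of a library. Zfp36 takes 69% to 76.9% in enzymatic suspensions without inhibitors and in sorted cells, and 12.7% to 25% in tissue, Dounce, and inhibitor groups.

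Sorting was not part of how the genes were chosen, and it added little to the family's level on ribosomes. In sorted TRAP, with the 4 sorts weighted the same, Zfp36 was 0.36 ± 0.10 higher on the log2 scale than in Cell-TRAP (95% interval 0.16 to 0.56, FDR = 0.00287, edgeR quasi-likelihood test with Benjamini-Hochberg adjustment). Zfp36l2 was 0.33 ± 0.08 higher (0.17 to 0.49, FDR = 9.33e-04 in the same edgeR test). For Zfp36l1 the difference was 0.22 ± 0.16 (-0.11 to 0.56, FDR = 0.256), and it turned to -0.05 relative to the microglial markers, while those of Zfp36 and Zfp36l2 went to 0.05 and 0.01. All 3 intervals end below the 2-fold change that a call required, so no member was called, as compared with 24.4% of 14953 genes tested (0.836% higher and 23.6% lower in sorted cells). The microglial markers had a median difference of 0.34. Libraries of the same mouse from different sorts counted as separate in these tests.

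By sort, Zfp36 in TRAP ran over 3496 to 4237 CPM in autoMACS, 3550 to 3941 in autoMACS to Tyto, 3196 to 4330 in Tyto, and 3447 to 5033 in FACSAria. These ranges overlapped for Zfp36 and likewise for both relatives between every pair of neighbours in the order of means. The F test among the 4 sorts gave FDR = 0.755 for Zfp36, 0.746 for Zfp36l1, and 0.584 for Zfp36l2 in TRAP (edgeR), with widest fitted gaps of 0.14, 0.27, and 0.15. In Input the FDR values were 0.941, 0.208, and 0.428 in the same edgeR test, with gaps of 0.18, 0.42, and 0.29. No member was called among sorts, where 7.42% of genes in Input and 4.17% in TRAP were, or 1169 and 624 genes. With the mouse as a block, only sorts that share mice could be compared, autoMACS to Tyto with autoMACS and FACSAria with Tyto. That narrower test, on fewer libraries, called 123 genes in Input and 265 in TRAP, so its counts are not the same test with blocking added.

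In Input the family rose with sorting as the microglia themselves did. Sorted Input as compared with Cell-Input held 2.50 ± 0.27 more Zfp36, 1.91 ± 0.14 more Zfp36l1, and 2.38 ± 0.14 more Zfp36l2 on the log2 scale (FDR = 8.84e-09, 1.09e-11, and 9.35e-14, edgeR), all called beside 51.8% of 15750 genes. The microglial markers had a median of 2.73 in the same comparison, and relative to them all members turned direction, with -0.16 for Zfp36, -0.76 for Zfp36l1, and -0.28 for Zfp36l2. Without the autoMACS-Input library of mouse 72 the differences were 2.48, 1.92, and 2.41. Astrocyte, oligodendrocyte, neuron, and endothelial markers fell in the same comparison, each with 10 of 10 called lower. Border macrophage markers rose, with 6 of 6 called and a median of 1.92, and of 6 blood markers tested 1 was called higher and 3 lower (median -0.96). The part of these cells in the differences of the family was not tested.

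TRAP against Input compares RNA enriched for the ribosomes of Cx3cr1+ cells with that of all cells in the lysate. In Tissue the TRAP level was higher by 1.18 ± 0.26 for Zfp36 (FDR = 2.67e-04), 1.60 ± 0.20 for Zfp36l1 (FDR = 1.30e-08), and 1.84 ± 0.13 for Zfp36l2 (FDR = 2.79e-16, all edgeR), and all 3 were called beside 11.1% of 15825 genes. The microglial markers were enriched far more, by a median of 4.47, so relative to them the 3 members were lower in TRAP by 2.95, 2.72, and 2.45 (-2.95, -2.72, and -2.45). The Zfp36 value rested on single mice. It was 0.88 without mouse 948, which no longer reached 2-fold (FDR = 0.0161, edgeR), and 1.83 without mouse 947. Tissue2, from the same mice, gave 1.94 ± 0.23, 1.48 ± 0.24, and 1.81 ± 0.21, all called beside 10.5% of 15894 genes, with a marker median of 4.74.

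In the unsorted suspension the enrichment was 2.26 ± 0.23 for Zfp36, 1.84 ± 0.19 for Zfp36l1, and 2.29 ± 0.12 for Zfp36l2, called beside 47.6% of genes, and the markers had a median of 2.80. Relative to the markers these values were -0.48, -0.95, and -0.44. Of the genes called there, 35.2% were higher in TRAP, or 21% when DESeq2's size factors replaced the TMM factors. Cell no inhibitors gave 1.89 ± 0.18, 1.60 ± 0.22, and 1.98 ± 0.20 with a marker median of 2.36, called beside 47.3%. With inhibitors Zfp36 was 1.09 ± 0.18 and Zfp36l2 1.60 ± 0.20 higher in TRAP, both called, while Zfp36l1 at 0.64 ± 0.22 (FDR = 0.00943, edgeR) stayed under 2-fold, beside 45.6% of genes called and a marker median of 2.27. Dounce had the steepest enrichment of the family, 2.89 ± 0.21, 3.24 ± 0.24, and 3.10 ± 0.21, with a marker median of 4.19 and 47.5% of genes called.

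After sorting, the 2 fractions could no longer be told apart for the family. Over the 4 sorts TRAP against Input was -0.09 ± 0.11 for Zfp36 (95% interval -0.31 to 0.13), -0.05 ± 0.09 for Zfp36l1 (-0.24 to 0.14), and 0.03 ± 0.06 for Zfp36l2 (-0.09 to 0.15). None was called, with edgeR FDR values of 0.524, 0.719, and 0.676, where 18.9% of genes were called, 0.0758% higher and 18.8% lower in TRAP. In none of the single sorts was a member called, beside 17.5% of genes called in autoMACS, 5.40% in autoMACS to Tyto, 17.0% in Tyto, and 10.3% in FACSAria. The difference of this ratio between sorted cells and the suspension was -2.34 ± 0.25 for Zfp36, -1.88 ± 0.21 for Zfp36l1, and -2.25 ± 0.14 for Zfp36l2 (FDR = 7.58e-11, 3.26e-10, and 2.12e-18, edgeR). All were called beside 28.9% of genes, and the markers had a median of -2.54. Of the genes called for this difference 34.4% were positive, against 60.5% with DESeq2's size factors, which moved the median of all genes by 0.46.

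**Figure D4:**
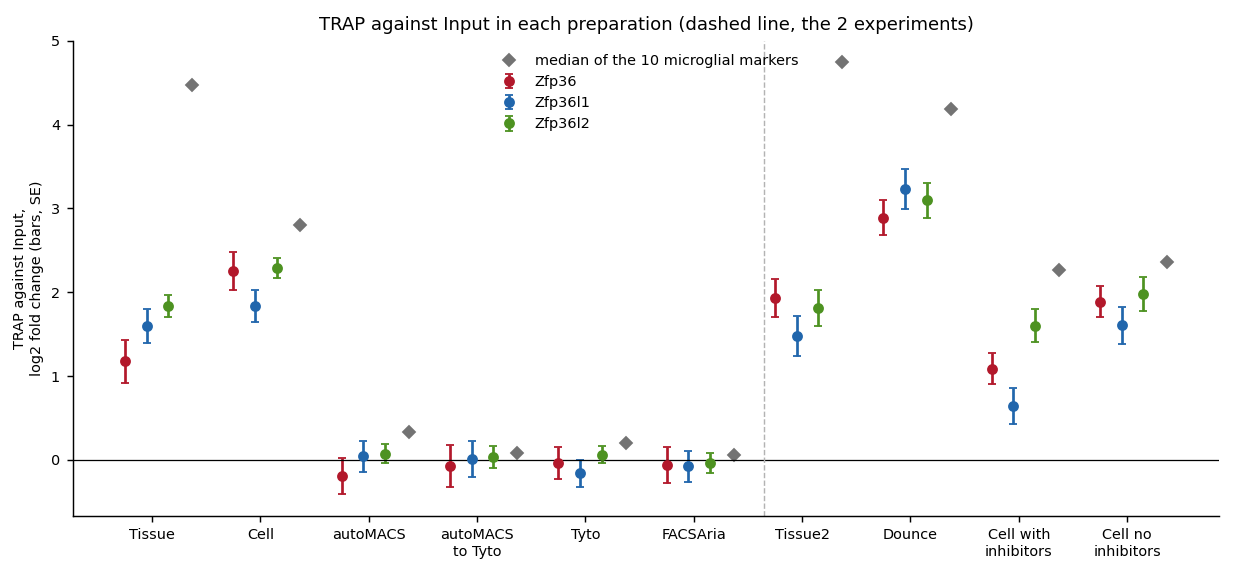
Log2 fold change of TRAP against Input with SE bars for each member in the 10 preparations, with the median of the 10 microglial markers as a grey diamond. The 4 sorts lie around 0 for members and markers, and in every other preparation the members lie between 0.64 and 3.24, below the markers at 2.27 to 4.74.

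The mRNAs that the family is known to bind were, like the family, mostly higher in the suspension. The list holds 26 mRNAs described as bound or destabilized by the family, among them cytokines, chemokines, and immediate early genes, and like the members and the other lists it was drawn up with earlier results of these data known. Calls of list genes between preparations are therefore given as counts that describe these libraries. Its sequences hold the short motif in 22 of 26 genes and the long motif in 12. In Cell-TRAP as compared with Tissue-TRAP, 20 of 22 targets tested were called higher and 0 lower, where 25.1% of 14953 genes were called higher and 29.3% lower. The list's median was 3.99, against -0.01 over all genes, and it stayed at 3.99 with Cxcl2, which had no count in Tissue-TRAP, set at its bound. The microglial markers had a median of 2.68 in this comparison. The part of microglial enrichment in the rises of this and the other lists was not tested. DESeq2's size factors moved the median of all genes by -0.33 there and the share of calls that were higher from 46.2% to 35%.

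Among the targets fixed for naming, Tnf, whose mRNA is the best known target of tristetraprolin, rose from 0.22 ± 0.08 CPM (SD, n = 4) in Tissue-TRAP to 108.3 ± 69.9 in Cell-TRAP. Il1b, coding for interleukin-1 beta, went from 0.40 ± 0.13 to 36.38 ± 24.03 CPM. Ier3, an immediate early gene and direct target, went from 6.857 ± 1.403 to 104.0 ± 53.9 CPM, a log2 difference of 3.94 ± 0.35. Cxcl2, a chemokine, was at least 52.78-fold higher, taking 3 counts a library as the floor. Ptgs2, which codes for cyclooxygenase, differed by 1.63 ± 0.53, the least of the 6 named. Il10, coding for an anti-inflammatory cytokine, was at 0.016 ± 0.032 CPM in Tissue-TRAP, with at most 1 count in a library, and at 4.17 ± 2.62 in Cell-TRAP.

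With inhibitors, 14 of 22 targets were called lower and 0 higher in TRAP, with a median of -2.81 against -0.03 over all genes, where 0.632% of 14723 genes were called lower and 0.00679% higher. The count over all genes was 94, and 150 with the mouse as a block. Tnf fell by 4.28 ± 0.43 on the log2 scale, Il1b by 4.83 ± 0.53, Ptgs2 by 3.39 ± 0.54, and Ier3 by 3.76 ± 0.22. Tnf was then at 4.66 ± 1.31 CPM. These comparisons share their libraries with those of the members, so the counts describe the same samples and do not add an independent one.

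Sorting moved few targets. In sorted TRAP against Cell-TRAP, 1 of 22 was called higher, Il1b with 1.33 ± 0.31, and 2 lower, Nos2 and Vegfa, beside 0.836% of all genes higher and 23.6% lower. The latter pair were named after their values were seen, with differences of -6.02 ± 0.72 and -3.17 ± 0.24, and their mRNAs code for an inducible nitric oxide synthase and a vascular growth factor. Sorted TRAP against Input had 1 of 23 targets called lower, again Nos2, and 0 higher, beside 18.8% of all genes lower and 0.0758% higher.

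The regulators moved in both directions. In Cell-TRAP against Tissue-TRAP, 7 of 20 were called higher and 3 lower, with a median of 0.05, where 25.1% of all genes were called higher and 29.3% lower. Dusp1, the phosphatase that shuts off p38, rose by the most, from 22.2 ± 2.7 CPM in Tissue-TRAP to 1630 ± 384.5 in Cell-TRAP, a log2 difference of 6.22 ± 0.16. Mapk14, which codes for p38 alpha, rose by 1.38 ± 0.05 and Mapkapk2, which codes for the kinase of tristetraprolin, differed by 0.89 ± 0.08, under the 2-fold change needed for a call. Mapk11, coding for p38 beta, fell by 3.64 ± 0.39. With inhibitors Dusp1 was the only regulator called of 20, lower by 5.58 on the log2 scale (-5.58 ± 0.26) beside 0.632% of all genes lower, and it was at 46.5 ± 10.0 CPM.

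The decay machinery that the family recruits moved less. Of 38 effectors tested, 12 were called higher and 0 lower in Cell-TRAP against Tissue-TRAP, with a median of 0.62, beside the same 25.1% and 29.3% of all genes. With inhibitors 0 of 38 met both the FDR and the 2-fold limit in edgeR, beside 0.632% of all genes called lower and 0.00679% higher. An unadjusted edgeR p under 0.05 was seen for 4 of them, and how many of all genes reach that was not counted. Among these was Tob2, named after its value was seen, which was lower by 0.99 (-0.99 ± 0.15, FDR = 7.16e-04 in edgeR) and so just under 2-fold. Like the other list values between preparations, these only describe the libraries. Cnot7 was not tested. The largest rise was that of Xrn1, the 5′ to 3′ exonuclease, with 3.57 ± 0.18, and Cnot1, the scaffold of the deadenylase, rose by 1.91 ± 0.08. In sorted TRAP against Cell-TRAP 1 effector was called lower, Tob1 with -1.86 ± 0.13, an antiproliferative adaptor of the deadenylase, where 23.6% of all genes were. Among 22 other binders of AU-rich or stem-loop elements, 3 were called higher and 1 lower in the suspension, against 25.1% and 29.3% of all genes. Zc3h12a, the endonuclease Regnase-1, rose by 3.80 ± 0.20 and was lower by 1.20 with inhibitors (-1.20 ± 0.30). Elavl1, whose protein stabilizes AU-rich mRNAs, differed by 0.46 ± 0.07, and Hnrnpd, which codes for AUF1, by -0.38 ± 0.08, both under 2-fold, as was Rc3h1, coding for the stem-loop binder roquin-1, at 0.92 ± 0.10. Igf2bp3, an RNA-binding protein of the IMP group, fell by 1.24 ± 0.48.

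**Figure D5:**
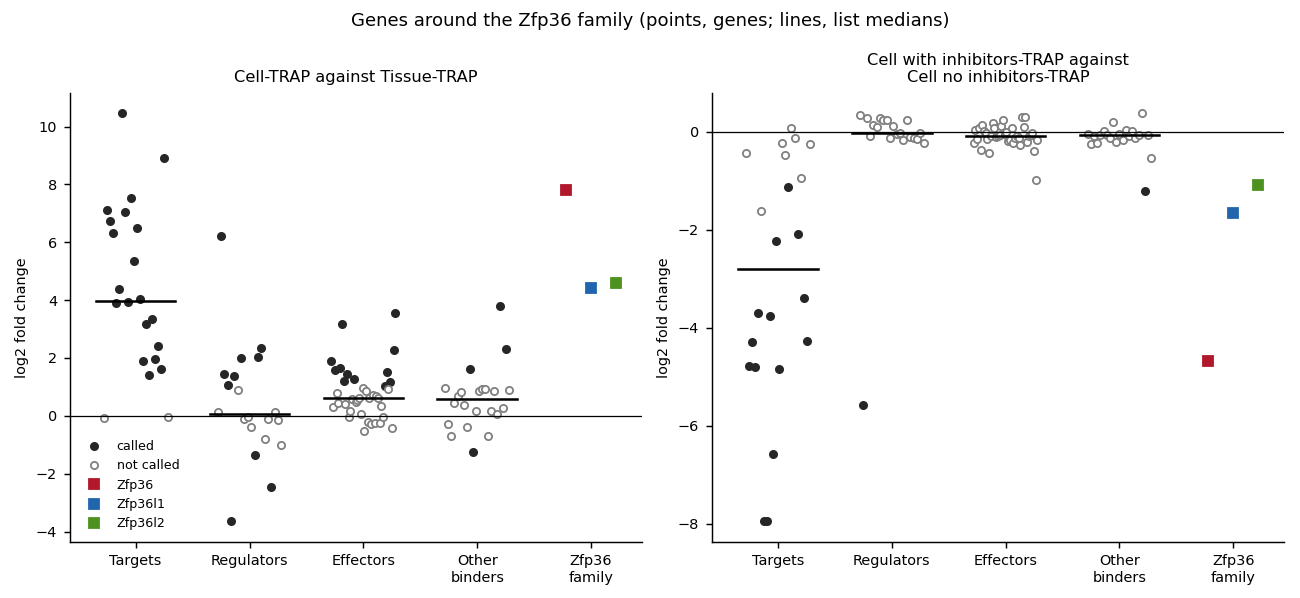
Log2 fold change of each tested gene of the 4 lists and of the 3 members in Cell-TRAP against Tissue-TRAP (left) and in Cell with inhibitors-TRAP against Cell no inhibitors-TRAP (right), with filled points for called genes, lines for list medians, and squares for the members. The targets have medians of 3.99 and -2.81, while the medians of regulators, effectors, and other binders lie between -0.08 and 0.62.

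Across the 20 group means, each experiment centred on its own mean, the genes whose profile was most like that of Zfp36 among 11018 were Btg2 (Pearson r = 0.997), Socs3 (0.992), Ccl3 (0.990), Atf3 (0.990), and Ccl4 (0.989). Btg2 and Atf3 are immediate early genes, Socs3 codes for an inhibitor of cytokine signaling, and Ccl3 and Ccl4 are chemokine genes, the chemokines also on the list of targets. For Zfp36l1 they were Il1a (0.989), Zfp36l2 (0.989), Cdyl (0.986), Sp1 (0.986), and Heca (0.985), and for Zfp36l2 they were Bmp2k (0.992), Nedd1 (0.991), Maml1 (0.991), Lims1 (0.991), and Pla2g4a (0.990). Zfp36l1 and Zfp36l2 were thus closer to each other than to Zfp36, whose r was 0.969 with Zfp36l1 and 0.944 with Zfp36l2. The group means share mice and libraries within each experiment and their tissue mice across the experiments, so these r values only describe likeness.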

How the data were processed

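Stranded poly(A) libraries were trimmed, aligned to mm10, freed of duplicates, and quantified in Strand NGS by the authors, who deposited an expected count and a DESeq2-normalized log2 value for each gene and library, the latter set against the median of tissue Input. Genes had to pass 5 reads in all samples of at least 1 group. Of the deposited expected counts, 33.2% were whole in the sort experiment and 20.8% in the preparation experiment, and they were rounded here.

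The 2 experiments were normalized separately, and levels are TMM-scaled CPM, while marker sums are CPM without that scaling. Each fraction, and both together for TRAP against Input, was fitted over all groups with edgeR's quasi-likelihood test (edgeR 4.0.16, R 4.3.3). Genes with more than 5 counts in every library of at least 1 group were tested, and a call needed a Benjamini-Hochberg FDR under 0.1 and a change over 2-fold. Alternatives used DESeq2 1.42.0, limma 3.58.1 on the deposited log2 values, a filter of 10 counts, left-out libraries, and the mouse as a block. On simulated counts, edgeR and limma were tried only for sorted TRAP against Cell-TRAP, and the other models and comparisons were not simulated.

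The members and lists were chosen with earlier results of these data known. Genes were named by a fixed rule: 16 genes of the lists, the largest called rise and fall of each list in Cell-TRAP against Tissue-TRAP, and the 5 genes most like each member. The lists of targets, regulators, effectors, and other binders hold 26, 20, 40, and 22 genes. Input and TRAP always came from the same mouse, so the mouse pairs them by design. Deviations from the group mean correlated within a mouse by 0.33 to 0.41 between Cell-Input and Cell-TRAP, by 0.06 to 0.16 between Tissue-TRAP and Cell-TRAP, and by -0.14 to 0.43 between autoMACS-Input and autoMACS-TRAP. An earlier table of 24 of these libraries was not used here. Intervals in the text come from fits by group, which count libraries of the same mouse as separate. Pooled values over the sorts therefore do not rest on independent mice throughout.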

Additional observations from a re-analysis of the deposited data

Results flagged for a closer look

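In 7 of 54 groups of 4 or 5 libraries, 1 library of a member lay apart from the rest of its group by Dixon's test, which flags about 1 in 20 groups by chance. Mouse 1362 had Zfp36 at 181.5 CPM in Cell with inhibitors-TRAP, where the other 3 mice had 136.7 to 140.5. In the same mouse Zfp36l1 was at 406.7 CPM in Cell with inhibitors-TRAP, against 282.8 to 301.5, and at 263.6 in Cell with inhibitors-Input, against 185.4 to 187.6. Mouse 947 had Zfp36 at 13.43 CPM in Tissue-Input, against 2.782 to 3.873, and at 5.496 in the second set of tissue data, Tissue2-Input, against 3.364 to 3.727. Zfp36l1 was at 1056 CPM in autoMACS-Input of mouse 66, against 787.3 to 793.7, and at 1363 in FACSAria-TRAP of mouse 992, against 929.9 to 1002.

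The log2 ratio of TRAP to Input differed between sorted cells and the unsorted suspension for every member in the test of the difference itself, by -2.344 for Zfp36, -1.884 for Zfp36l1, and -2.255 for Zfp36l2, beside a median of -2.54 for the 10 microglial markers.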

How the results depend on the processing

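No called value of a member changed direction under another tool, filter, size factor, or left-out library. For Cell-TRAP against Tissue-TRAP, DESeq2's size factors and DESeq2's own test gave 7.46 for Zfp36 and 4.28 for Zfp36l2, the filter of 10 counts gave 7.43 and 4.25, and limma on the deposited log2 values gave 7.36 for Zfp36, 3.97 for Zfp36l1, and 4.17 for Zfp36l2. With single mice left out, Zfp36 in Tissue TRAP against Input ran from 0.88 to 1.83 and Zfp36 in Cell-Input against Tissue-Input from 6.57 to 7.62.

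The filter of 10 counts tests fewer genes by construction and lowered the counts of calls to 3079 for sorted Input against Cell-Input, 440 for sorted TRAP against Cell-TRAP, 304 and 173 among sorts in Input and TRAP, and 4381 for Cell-TRAP against Tissue-TRAP. For TRAP against Input they were 925 in Tissue, 2734 in Cell, 348 in autoMACS, 257 in autoMACS to Tyto, 292 in Tyto, 175 in FACSAria, 224 over the sorts, 2398 for sorted minus Cell, 850 in Tissue2, 4432 in Dounce, 3368 without inhibitors, and 3172 with inhibitors.

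Set against the mean of the 10 microglial markers, the direction turned for Zfp36l1 (-0.15) and Zfp36l2 (-0.18) in Cell-Input against Tissue-Input, for Zfp36 in Dounce-TRAP against Tissue2-TRAP (-0.32), for all members in sorted Input against Cell-Input (-0.16, -0.76, and -0.28), for Zfp36l1 in sorted TRAP against Cell-TRAP (-0.05), and for all members in TRAP against Input in Tissue (-2.95, -2.72, and -2.45) and Cell (-0.48, -0.95, and -0.44). The microglial markers themselves moved in these comparisons.

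With the mouse as a block, Zfp36 in Tissue TRAP against Input was 1.38 (edgeR FDR = 4.198e-07), and the block changed no call of a member. It could not be fitted within a fraction for Dounce against other preparations or for sorted cells against Cell, which share no mice. In both fractions together it gave 7569 calls for Dounce and 4682 for sorted minus Cell, in place of 7545 and 4577. With whole transcript lengths, an alternative chosen after the data were seen, the mean Zfp36 share of the family was lower in every group, as in Tissue-TRAP with 14.2% in place of 20.7% and Cell-TRAP with 61.4% in place of 71.6%. Depth limits Zfp36 in tissue Input most.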
